A study of Homo sapiens with 8 samples.

Results

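Epithelial-mesenchymal transition (EMT) was followed here through 10 genes, chosen by name from the 25192 gene symbols of each deposited table: the cadherins CDH1, CDH2 and CDH3, the mesenchymal proteins VIM and FN1, the repressors ZEB1, ZEB2, SNAI1 and SNAI2, and the splicing factor ESRP1. All 10 had a row, and all 10 had at least 1 count in some library. Poly(A) RNA was sequenced from HT29 and SW480, established human colorectal cancer cell lines that carry a truncated APC protein, after transfection for 36 h with a control siRNA or with an siRNA against PRDX2, the gene of peroxiredoxin II (PrxII), a cytosolic enzyme that removes hydrogen peroxide. Each of the 4 groups (HT29 with control siRNA, HT29 with PRDX2 siRNA, SW480 with control siRNA, SW480 with PRDX2 siRNA) held 2 libraries. Nothing says that the 2 libraries of a group came from separate transfections, so p-values measure the spread between these libraries, which may be technical. The lines were grown in different media, McCoy's for HT29 and RPMI for SW480, so that line and medium cannot be told apart. The paper's RNA-sequencing methods describe only HT29 samples. Any difference in preparation or sequencing run between the lines cannot be told apart from line either.

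In EMT, epithelial cells give up E-cadherin junctions and take on vimentin filaments, a fibronectin matrix and motility. The zinc finger proteins of the ZEB and SNAI families bind E-box sequences and repress CDH1 and other epithelial genes, while ESRP1 keeps the epithelial splice forms of many transcripts. Colorectal cancer lines are known to range from epithelial to mesenchymal along this axis, and β-catenin, the protein that truncated APC fails to restrain, is both a partner of E-cadherin at the membrane and a transcriptional co-activator in the nucleus.

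The sequences before the start sites of VIM, FN1 and ZEB1 are shown because these genes were among those with the widest difference between the lines. They are the 250 bases before a start listed by RefSeq on GRCh38.p14, which differs from the hg19 build of the expression files. The table held windows for 5 of the 10 genes (CDH2, VIM, ZEB1, ZEB2 and FN1) and not for CDH1, CDH3, SNAI1, SNAI2 and ESRP1. Capitals mark the E-box CAGGTG or its reverse complement CACCTG, and the cAMP response element TGACGTCA, which is its own reverse complement. VIM is shown from chr10:17227991-17228240 (plus strand), FN1 from chr2:215436069-215436318 (minus strand) and ZEB1 from chr10:31318966-31319215 (plus strand), 1 of its 7 listed starts.
VIM: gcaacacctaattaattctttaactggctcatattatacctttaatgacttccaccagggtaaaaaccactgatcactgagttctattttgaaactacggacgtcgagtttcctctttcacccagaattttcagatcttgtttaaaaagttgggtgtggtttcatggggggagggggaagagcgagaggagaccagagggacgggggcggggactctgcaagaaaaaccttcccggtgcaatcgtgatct
FN1: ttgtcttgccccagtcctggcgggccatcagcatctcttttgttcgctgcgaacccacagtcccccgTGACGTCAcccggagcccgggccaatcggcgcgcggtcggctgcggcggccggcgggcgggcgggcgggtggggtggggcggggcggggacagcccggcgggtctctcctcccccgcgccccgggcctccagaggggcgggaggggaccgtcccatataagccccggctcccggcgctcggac
ZEB1: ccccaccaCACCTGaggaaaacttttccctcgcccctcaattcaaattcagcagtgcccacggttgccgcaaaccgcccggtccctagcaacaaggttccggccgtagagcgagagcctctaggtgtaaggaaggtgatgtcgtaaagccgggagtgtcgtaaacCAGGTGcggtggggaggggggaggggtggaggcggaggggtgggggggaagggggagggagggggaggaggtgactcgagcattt

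Neither the VIM nor the FN1 window held the E-box, and the FN1 window held the cAMP response element 183 bases before the start. In the ZEB1 window the E-box lay 242 and 85 bases before the start, the most at any listed ZEB1 start. A second ZEB1 start carried it 57 bases before, and the other listed ZEB1 starts held none. For comparison, 17.5% of all 35116 windows of this length held the E-box on either strand and 1.65% held the cAMP response element. The shares are for single windows, not for the richest of several starts of a gene. All of these are matches of letters and were not tested as binding sites.

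The libraries summed to between 8857442 and 10164137 expected counts, so that 3 counts equal 0.295 to 0.339 CPM (counts scaled by library size). PRDX2 itself was at 331.29 and 343.46 TPM (RSEM's estimate of transcript abundance, corrected for length and scaled to a fixed total) in HT29 with control siRNA and at 193.41 and 193.63 TPM with PRDX2 siRNA. In SW480 it was at 481.72 and 560.20 TPM with control siRNA and at 169.15 and 171.87 TPM with PRDX2 siRNA. The log2 fold change was -0.87 ± 0.05 (SE, n = 2 per group) in HT29, with an adjusted p of 1.15e-09 by the edgeR quasi-likelihood test, and -1.70 ± 0.12 in SW480, with an adjusted p of 6.18e-04. The depletion was deeper in SW480 by 0.84 on the log2 scale (coded SW480 minus HT29, -0.84, adjusted p = 0.0128 by edgeR). That call was lost in 6 of 8 cases in which 1 library was left out, with adjusted p of 0.122 to 0.159 and a difference that stayed between -0.95 and -0.70. Over all alternatives its adjusted p ran from 9.92e-09 to 0.159. The spread between duplicates was not even over the groups. The SW480 control duplicates differed by a chi-square of 10.6 for each degree of freedom, computed on their counts, against 1.42, 1.68 and 2.08 for the duplicates of the other 3 groups. SW480 control library 1 lay 20.5 and 22.3 from the 2 PRDX2 siRNA libraries, and control library 2 lay 10.1 and 10.3 from them. With 2 control libraries, these values do not show which of them is the unusual one. Leaving out control library 1 keeps the control that lies closer to the PRDX2 siRNA libraries. The difference between the SW480 control duplicates followed transcript GC content (Spearman rho = 0.68 across genes, which are not independent replicates, against 0.12 to 0.18 in the other groups). Without control library 1 the log2 fold change of PRDX2 in SW480 was -1.81, and the SW480 knockdown values of genes that passed are given with and without that library. That fit has 1 control library and takes no spread from the controls, so only its fold changes are given for single genes.

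Markers of colorectal epithelium were read in both lines. All 7 had counts in each group, and their summed level ran from 8767 to 8891 TPM in HT29 and from 3605 to 4390 TPM in SW480. The sum in SW480 came mainly from KRT8 and EPCAM, while the enterocyte lectin LGALS4 was at 896.06 to 997.97 TPM in HT29 and 0.57 to 1.03 TPM in SW480. KRT20 was at 546.01 to 769.83 TPM in HT29 and 0.79 to 1.34 TPM in SW480. CDH17 was at 2.99 to 4.36 TPM in HT29 and 0.35 to 0.71 TPM in SW480, and VIL1 at 126.41 to 133.37 TPM and 42.65 to 50.81 TPM. CDX2 went the other way, at 8.23 to 13.67 TPM in HT29 and 18.82 to 31.47 TPM in SW480. Of 6 fibroblast markers, DCN was at 0 in all 8 libraries and COL3A1 in 7 of them, and the 6 summed to 2.06 to 3.14 TPM in HT29 and 9.57 to 12.56 TPM in SW480. PTPRC, which marks leukocytes, was at 0 in every library, and the 3 leukocyte markers, nearly all CD68, summed to 12.63 to 27.94 TPM. The 3 endothelial markers summed to at most 0.57 TPM.

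The ranking of the 10 genes by TPM was led by epithelial genes in HT29 and by mesenchymal genes in SW480. In HT29 with control siRNA, CDH1 stood first with a mean of 258 TPM, followed by ESRP1 at 147.5 TPM, CDH3 at 7.37 TPM and SNAI1 at 2.07 TPM. FN1, VIM, ZEB1 and ZEB2 all lay under 1 TPM, the ranges of VIM and ZEB1 overlapped, and CDH2 and SNAI2 were listed at 0. In SW480 with control siRNA, VIM stood first with a mean of 773.8 TPM, followed by FN1 at 86.95 TPM, ESRP1 at 30.2 TPM, CDH3 at 15.78 TPM, ZEB1 at 15.08 TPM and CDH1 at 12.24 TPM. SNAI1 and SNAI2 came next at 7.59 and 5.39 TPM. The ranges of CDH3 and ZEB1 overlapped, as did those of SNAI1 and SNAI2, so that these pairs have no order beyond their spread.

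**Figure D1:**
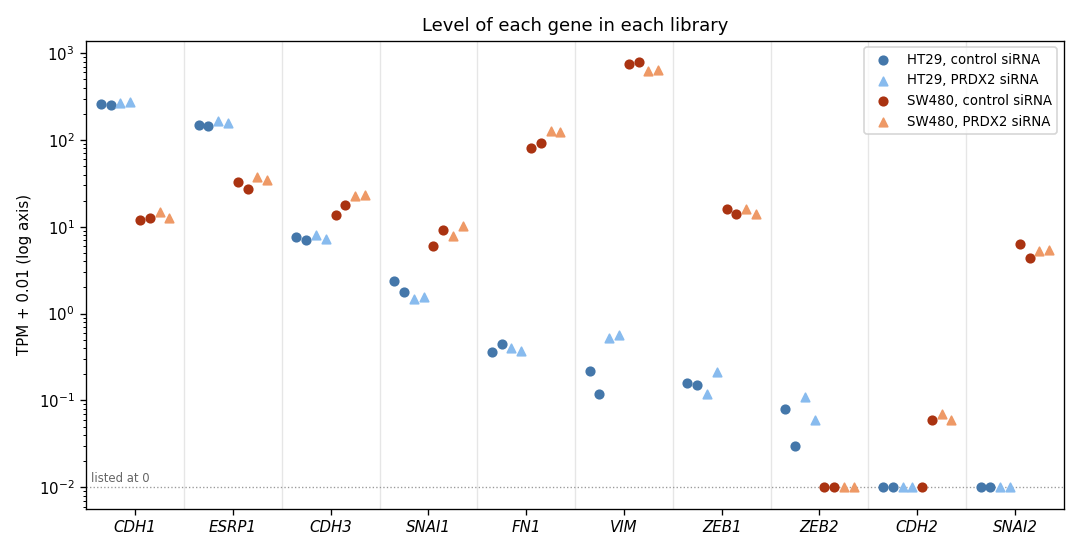
Level of each of the 10 genes in each of the 8 libraries, as TPM + 0.01 on a log axis, with circles for control siRNA, triangles for PRDX2 siRNA, blue for HT29 and red to orange for SW480. CDH1 and ESRP1 lie higher in every HT29 library, and CDH3, SNAI1, FN1, VIM, ZEB1 and SNAI2 lie higher in every SW480 library.

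The comparison of the lines within one siRNA asks where each line sits between the epithelial and mesenchymal states. Between control siRNA libraries, 67.5% of 14346 genes tested differed (35.7% higher in SW480 and 31.8% lower), so most genes differed between these lines. Between PRDX2 siRNA libraries the shares were 81.9% of 14438 genes, 42.9% higher and 38.9% lower. Of the 10 genes, 8 were tested in each comparison, and in each 6 were higher and 2 lower in SW480. VIM, ZEB1 and SNAI2 passed the filter on low counts (at least 10 counts in at least 2 libraries) only through SW480, and therefore had to differ. For these genes the ratio of summed counts between the lines, scaled by library size, is given with a 95% interval that covers counting error only.

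CDH1, the E-cadherin of adherens junctions, was at 262.59 and 253.49 TPM in HT29 with control siRNA and at 11.98 and 12.49 TPM in SW480 with control siRNA. The lines do not overlap. The gene was 23.0-fold lower in SW480 (log2 fold change -4.52 ± 0.11, adjusted p = 2.36e-08 by edgeR). In PRDX2 siRNA libraries it was at 267.78 and 270.33 TPM in HT29 and at 14.71 and 12.53 TPM in SW480 (log2 fold change -4.45 ± 0.06, adjusted p = 4.05e-18 by edgeR). The SW480 level was low but above 0, with 226 to 294 counts per library.

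CDH3, the P-cadherin of basal epithelium, moved the other way. It was at 7.67 and 7.06 TPM in HT29 and 13.70 and 17.86 TPM in SW480 with control siRNA, and at 7.96 and 7.31 TPM in HT29 and 22.51 and 23.44 TPM in SW480 with PRDX2 siRNA. Every SW480 library lay above every HT29 library. The log2 fold change was 0.97 ± 0.18 (adjusted p = 0.00118 by edgeR) in control libraries, or 1.24 without SW480 control library 1, and 1.44 ± 0.10 (adjusted p = 1.22e-09) in PRDX2 siRNA libraries. CDH3 (chr16:68670092-68761371) and CDH1 (chr16:68771195-68869440) are neighbours on the plus strand of GRCh37 with 9823 bases between them, so that adjacent genes differed in opposite directions between the lines. CDH2, the N-cadherin whose gain often accompanies loss of E-cadherin, had no count in any HT29 library and 0, 1, 1 and 1 counts in the SW480 libraries, too few for a test or a fold.

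VIM, the intermediate filament of mesenchymal cells (chr10:17270240-17279592 on GRCh37), showed the widest contrast. It had 2 and 1 counts in the HT29 control libraries and 6204 and 7148 counts in the SW480 control libraries. The ratio of summed counts was 4461 (1526 to 21630). With PRDX2 siRNA, 5 and 5 counts in HT29 stood against 5422 and 5625 counts in SW480, a ratio of 1044 (567.3 to 2177). In TPM, HT29 spanned 0.11 to 0.56 and SW480 spanned 620.16 to 794.14. FN1, the matrix glycoprotein fibronectin (chr2:216225163-216300796 on GRCh37), was at 0.35 and 0.44 TPM in HT29 and 80.36 and 93.54 TPM in SW480 with control siRNA. Its counts of 12 to 16 per HT29 library just passed the filter. The log2 fold change was 7.69 ± 0.19 in control libraries (adjusted p = 2.36e-08 by edgeR) and 8.32 ± 0.08 in PRDX2 siRNA libraries (adjusted p = 2e-19 by edgeR).

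Among the repressors, ZEB1 (chr10:31607424-31818742 on GRCh37) was at 15.95 and 14.22 TPM in SW480 control libraries and at 0.15 and 0.14 TPM in HT29 control libraries, where it had 4 counts each. The ratio of summed counts was 92.7 (46.8 to 215.5) with control siRNA and 89.2 (45.0 to 207.3) with PRDX2 siRNA. The library kit does not mark strand, so reads shared with the antisense gene ZEB1-AS1, at 34 to 72 counts per library, cannot be told apart from those of ZEB1 where the genes overlap. SNAI2, also called Slug, was listed at 0 in all 4 HT29 libraries and had 52, 39, 46 and 48 counts in the SW480 libraries. Against the limit of 3 counts over a group it was at least 30.4-fold higher in SW480 with control siRNA and at least 29.6-fold higher with PRDX2 siRNA. SNAI1, also called Snail, was found in both lines, at 2.38 and 1.75 TPM in HT29 and 5.96 and 9.22 TPM in SW480 with control siRNA. Its log2 fold change was 1.75 ± 0.33 (adjusted p = 0.00154 by edgeR), or 2.11 without SW480 control library 1, and 2.44 ± 0.28 in PRDX2 siRNA libraries (adjusted p = 8.08e-07 by edgeR). ZEB2 did not follow its paralog. It had 3, 1, 4 and 2 counts in HT29 and 0 in each SW480 library, under what could be tested.

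ESRP1, the splicing regulator of epithelial cells, was at 149.06 and 146.02 TPM in HT29 and 32.84 and 27.57 TPM in SW480 with control siRNA. It was lower in SW480 by a log2 fold change of -2.43 ± 0.12 (adjusted p = 4.97e-07 by edgeR) and by -2.32 ± 0.05 with PRDX2 siRNA (adjusted p = 6.41e-16 by edgeR). Unlike VIM or ZEB1, it was well above the limit of detection in both lines, with 434 to 569 counts in each SW480 library. In bulk RNA, fewer cells that express a gene and less RNA per cell cannot be told apart, which applies to the intermediate ESRP1 and CDH1 levels of SW480.

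**Figure D2:**
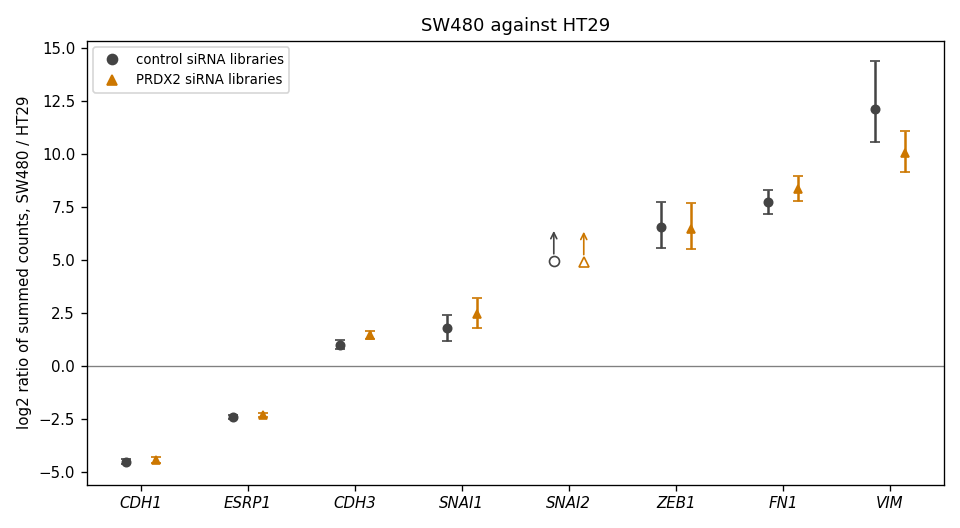
Ratio of the summed counts of SW480 over HT29 on a log2 axis for the 8 genes with enough counts, with black circles for control siRNA libraries, orange triangles for PRDX2 siRNA libraries and bars for the 95% counting interval. The open SNAI2 points with arrows are lower bounds, since HT29 held no count, and the ratios run from CDH1 at -4.52 to VIM at 12.12 in control libraries.

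Genes around the 10 were read from lists of known epithelial and mesenchymal genes. Of 14 transcription factors that maintain epithelial identity, 12 were lower and 2 higher in SW480 with control siRNA, with a median log2 fold change of -1.62 against 0.04 for all genes tested. Over all genes tested, 31.8% were lower and 35.7% higher. GRHL2, GRHL3 and OVOL1 passed the filter on low counts only through HT29 and had to differ. Of the 11 that passed it in both lines, 9 were lower and 2 higher, with a median of -1.20. GRHL2, a direct activator of CDH1, was at 38.82 and 38.37 TPM in HT29 and 0.05 and 0.13 TPM in SW480. FOXA1, a pioneer factor of endodermal epithelium, was at 98.46 and 94.77 TPM in HT29 and 0.91 and 1.04 TPM in SW480 (log2 fold change -6.74 ± 0.17, adjusted p = 2.9e-08 by edgeR). OVOL1, a repressor of ZEB1, had 492 counts over the HT29 control libraries and 13 over the SW480 control libraries, 37.8-fold fewer (21.9 to 71.4). CDX2 went the other way, at 8.58 and 8.23 TPM in HT29 and 18.82 and 22.25 TPM in SW480.

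Of 35 genes of epithelial junctions and surfaces, 29 were lower and 3 higher in SW480, with a median of -1.37. RAB25 and PRSS8 passed the filter only through HT29. Of the 33 that passed it in both lines, 27 were lower and 3 higher, with a median of -1.33. RAB25, a GTPase of epithelial vesicle traffic, was at 291.19 and 306.41 TPM in HT29 and 0 and 0.45 TPM in SW480. The membrane protease gene PRSS8 had 2333 counts against 11, 211.6-fold fewer in SW480 (118.1 to 424.5). S100A14 was lower by a log2 fold change of -5.31 ± 0.17 (adjusted p = 7.3e-08 by edgeR). Some members were higher in SW480. DSP, the desmosome plaque protein, was at 104.06 and 106.93 TPM in SW480 against 51.13 and 50.02 TPM in HT29, and its partner PKP2 at 88.11 and 84.11 TPM against 41.00 and 43.36 TPM.

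Of 41 genes expressed by mesenchymal cells, 32 were tested, and 23 were higher and 4 lower in SW480, with a median of 3.04. In 12 of the 32, SPARC, ITGA5 and GNG11 among them, the filter was passed through SW480 only, so that they had to differ. Of the 20 that passed it in both lines, 11 were higher and 4 lower, with a median of 0.63. SPARC, a matrix protein, was listed at 0 in HT29 and at 17.86 and 18.58 TPM in SW480 (at least 178-fold higher). The fibronectin receptor subunit ITGA5 was at 0.16 and 0.05 TPM in HT29 and 79.43 and 82.52 TPM in SW480, and GNG11 at 0.24 and 0 TPM against 573.17 and 365.77 TPM. The list did not move as a block, since TPM1, TPM2, TGFBI and DAB2 were lower in SW480 (named after their values were seen) and 5 genes did not pass. Of the other cadherins, CDH11 and CDH13 also passed the filter only through SW480. CDH11, the cadherin of osteoblasts and mesenchyme, was at 0 in HT29 and at 59.66 and 54.83 TPM in SW480 (at least 568-fold higher). CDH13, which lacks a cytoplasmic tail, was at 15.52 and 16.97 TPM in SW480 and at most 0.12 TPM in HT29.

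The counts of the lists that follow stand against 67.5% of all genes that differed between the lines, 35.7% higher and 31.8% lower, and nothing particular to these lists is read from them. The catenins, which join cadherins to actin, were split, with 4 of 7 higher and 3 lower in SW480. CTNNB1, the β-catenin gene, was at 1093.55 and 1113.52 TPM in SW480 and 147.99 and 152.49 TPM in HT29 (log2 fold change 2.74 ± 0.09, adjusted p = 6.85e-08 by edgeR), while JUP, its close relative plakoglobin, was lower (log2 fold change -1.56 ± 0.15, adjusted p = 2.45e-05). Among 8 splicing regulators, 3 were higher and 3 lower. QKI, which promotes mesenchymal splice forms, passed the filter only through SW480 and was at 0 in HT29 and at 16.04 and 15.16 TPM in SW480. RBM47 and the ESRP1 paralog ESRP2 were lower, with log2 fold changes of -3.81 ± 0.12 and -1.38 ± 0.13. In the TGF-β pathway, a classical inducer of EMT, 4 of 13 genes were higher and 7 lower. The ligand gene TGFB1 was higher in SW480 (log2 fold change 2.52 ± 0.22, adjusted p = 1.29e-05 by edgeR), and the signal transducer SMAD4 was at 0.38 and 0.32 TPM in SW480 against 3.69 and 3.85 TPM in HT29. Of 10 corepressor genes that ZEB and SNAI proteins recruit or work beside, 7 were lower and 1, RCOR1, was higher. Of 11 other EMT transcription factor genes, 6 could be tested, 1 was higher and 2 were lower in SW480.

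The comparison of PRDX2 siRNA with control siRNA within a line asks whether PrxII depletion moved the cells along this axis. In HT29, 17.6% of 12961 genes tested differed (7.76% higher and 9.82% lower). The higher genes made up 44.1% of those called, against 69.6% by limma on log2(TPM + 1) and 55.1% with an offset for transcript GC content. None of the 5 genes that could be tested (CDH1, CDH3, SNAI1, FN1 and ESRP1) passed by edgeR, 0 had an unadjusted p under 0.05, and 0 passed by DESeq2 or by limma. The other 5 (CDH2, VIM, ZEB1, ZEB2 and SNAI2) had too few counts. CDH1 was at 262.59 and 253.49 TPM with control siRNA and at 267.78 and 270.33 TPM with PRDX2 siRNA, with a 95% interval of the log2 fold change from -0.06 to 0.05. ESRP1 was at 149.06 and 146.02 TPM and then at 164.34 and 157.68 TPM (interval -0.01 to 0.14, adjusted p = 0.249 by edgeR). For CDH3 the interval was -0.27 to 0.25. SNAI1 (18 and 13 counts, then 11 and 11) and FN1 (13 and 16, then 14 and 12) had wide intervals, -1.35 to 0.31 and -0.99 to 0.61. VIM had 3 counts over the control libraries and 10 over the PRDX2 siRNA libraries, a ratio of 3.26 with a counting interval of 0.84 to 18.4 that includes 1.

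In SW480, 3.3% of 14112 genes tested differed (1.22% higher and 2.08% lower), and of the 8 genes tested, 1 fell and 0 rose. Over all genes, 36.9% of those called were higher, against 58.9% by limma on log2(TPM + 1) and 74.7% with an offset for transcript GC content, which moved the median of all genes by 0.12 on the log2 scale. VIM was at 753.44 and 794.14 TPM with control siRNA and at 620.16 and 631.99 TPM with PRDX2 siRNA. The log2 fold change was -0.40 ± 0.09 (interval -0.59 to -0.20, adjusted p = 0.0472 by edgeR), or -0.44 without SW480 control library 1. The call lies at the edge of the threshold. It was lost without the filter on low counts (adjusted p = 0.0503), by limma (0.105 and 0.107), with the GC offset (log2 fold change -0.36, adjusted p = 0.0633) and when either PRDX2 siRNA library was left out. With any 1 library left out, which leaves 1 library in a group, the log2 fold change ran from -0.44 to -0.36.

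FN1, by contrast, was at 80.36 and 93.54 TPM with control siRNA and at 127.66 and 122.47 TPM with PRDX2 siRNA. The log2 fold change of 0.43 ± 0.11 (interval 0.19 to 0.68) missed the threshold with an adjusted p of 0.0648 by edgeR. With the GC offset it passed, at 0.59 with an adjusted p of 0.00232 by edgeR. Without SW480 control library 1 the log2 fold change of FN1 was 0.32, and with any 1 library left out it ran from 0.32 to 0.55. CDH3 was at 13.70 and 17.86 TPM and then at 22.51 and 23.44 TPM. Its log2 fold change was 0.45 ± 0.15 (interval 0.10 to 0.80, adjusted p = 0.129 by edgeR). It was 0.26 without SW480 control library 1, and ran from 0.26 to 0.66 with any 1 library left out. At the unadjusted level, 3 of the 8 genes (VIM, FN1 and CDH3) had p under 0.05.

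The others did not pass in SW480. CDH1 was at 11.98 and 12.49 TPM with control siRNA and at 14.71 and 12.53 TPM with PRDX2 siRNA (interval -0.26 to 0.39), so no change beyond the spread was detected at its low level. ZEB1 was at 15.95 and 14.22 TPM, then at 15.93 and 14.11 TPM (interval -0.40 to 0.20). SNAI2 (interval -0.65 to 0.48) and SNAI1 (interval -0.43 to 0.76) had 39 to 73 counts per library and these intervals are wide. ESRP1 had an interval of -0.12 to 0.46 and passed with the GC offset (0.46, adjusted p = 0.0211 by edgeR). Its log2 fold change was 0.29 without SW480 control library 1, and ran from 0.05 to 0.29 with any 1 library left out. The genes differ in transcript GC content, from 42.4% for ZEB1 and 42.6% for ESRP1 to 54.2% for VIM and 55.2% for CDH3.

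**Figure D3:**
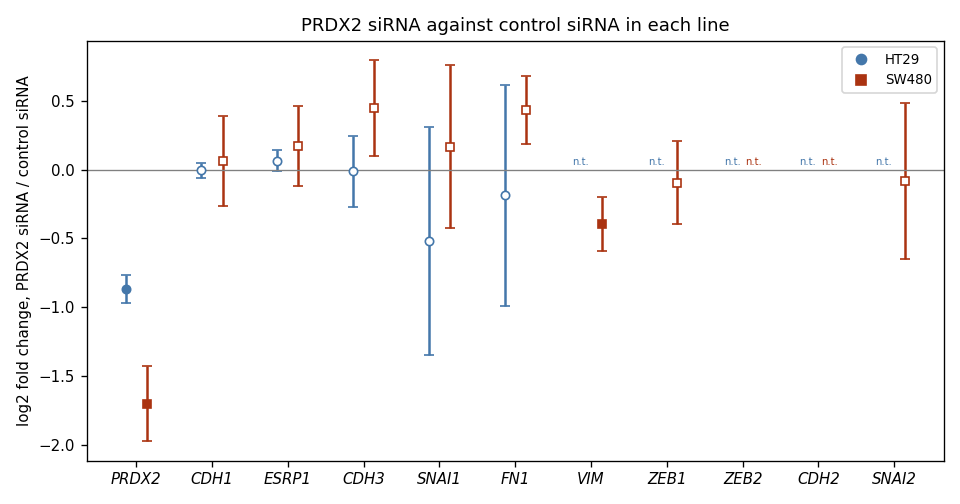
Log2 fold change of PRDX2 siRNA over control siRNA for PRDX2 and the 10 genes, with blue circles for HT29, red squares for SW480 and bars for the 95% interval of the edgeR fit. Filled points passed at an adjusted p under 0.05 (PRDX2 in both lines, VIM in SW480), open points did not, and n.t. marks genes with too few counts to test.

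The difference of the effect between the lines was taken from a joint edgeR model of the 8 libraries, in which 1.12% of 14772 genes passed (0.508% higher and 0.616% lower in SW480 minus HT29). Of the genes called, 45.2% were higher, against 57.3% by limma on log2(TPM + 1) and 66% with the GC offset. Of the 10 genes, 8 entered and 0 passed by edgeR, 0 by DESeq2 and 1, VIM, by limma on log2(TPM + 1), while 2 had an unadjusted p under 0.05. These were CDH3 (0.46 ± 0.20, adjusted p = 0.246) and VIM (-2.02 ± 0.53, adjusted p = 0.165), whose HT29 side rests on 3 and 10 counts. For CDH1 the interval of the difference was -0.20 to 0.33 and for ESRP1 -0.16 to 0.37, so that effects in the lines that differ by less than this would not be seen. The 2 effects on FN1, -0.19 in HT29 and 0.43 in SW480, differed by 0.62 ± 0.34 (adjusted p = 0.37 by edgeR).

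The surrounding lists were also read for PrxII depletion. In HT29, where 17.6% of all genes differed (7.76% higher and 9.82% lower), epithelial transcription factors had 5 of 14 genes higher and 1 lower, with CDX2, the intestinal master regulator, higher (log2 fold change 0.58 ± 0.14, adjusted p = 0.00668 by edgeR), FOXA1 higher (0.24 ± 0.04) and GRHL3 lower (-0.49 ± 0.14). Epithelial junction and surface genes had 3 of 35 higher and 10 lower. DSP rose from 51.13 and 50.02 TPM to 73.87 and 71.76 TPM (0.47 ± 0.04, adjusted p = 5.86e-08), while KRT19 fell by 0.28 on the log2 scale. Mesenchymal genes had 2 of 22 higher and 5 lower, with S100A4 at 1483.15 and 1475.03 TPM and then at 1110.98 and 1146.14 TPM (-0.45 ± 0.03, adjusted p = 6.02e-08), LGALS1 lower (-0.56 ± 0.15) and DAB2 higher (0.46 ± 0.10). ESRP2 fell by 0.26 on the log2 scale (adjusted p = 0.00162 by edgeR), and was the splicing regulator among 7 that passed. CTNND1, the p120 catenin that holds cadherins at the membrane, rose by 0.10 ± 0.02 (adjusted p = 0.00391 by edgeR). Of the corepressors, EZH2 (0.27 ± 0.05), KDM1A (0.16 ± 0.04) and CTBP2 (0.14 ± 0.04) were higher and 1 other was lower.

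In SW480, where 3.3% of all genes differed (1.22% higher and 2.08% lower), mesenchymal genes had 2 of 34 higher and 4 lower, with a median log2 fold change of -0.26 against 0.00 for all genes. S100A4 fell from 3028.48 and 2461.74 TPM to 1693.18 and 1752.80 TPM (-0.75 ± 0.11, adjusted p = 0.0135 by edgeR). NT5E, the surface ecto-nucleotidase CD73, was at 90.39 and 72.29 TPM and then at 36.75 and 37.74 TPM (-1.21 ± 0.13, adjusted p = 0.00434). COL6A1 rose from 25.00 and 36.60 TPM to 58.31 and 58.95 TPM (0.83 ± 0.17, adjusted p = 0.0366). SPARC and AXL were the others that fell, by 0.68 and 0.51 on the log2 scale (named after their values were seen). Epithelial junction and surface genes had 0 of 33 higher and 3 lower: ERBB3 (-0.58 ± 0.11), PKP2 (-0.48 ± 0.11) and KRT18 (-0.37 ± 0.06, adjusted p = 0.021 by edgeR). EHF, an epithelial ETS factor, was the epithelial transcription factor of 11 that rose (0.63 ± 0.11, adjusted p = 0.0222 by edgeR). Without SW480 control library 1, which leaves 1 control library, the median log2 fold change of mesenchymal genes was -0.23. The median of epithelial junction and surface genes was 0.11 with and without that library. For epithelial transcription factors it was 0.15 with it and 0.19 without it. The genes named above kept their direction without that library, NT5E at -1.05, SPARC at -0.72, S100A4 at -0.61, AXL at -0.56 and COL6A1 at 0.58, and ERBB3 at -0.58, PKP2 at -0.45, KRT18 at -0.34 and EHF at 0.75. Of the list genes called in SW480, S100A4, NT5E, ERBB3 and KRT18 were also lower in HT29, and EHF was also higher there. The paper already gave S100A4 as lower in both lines from these data, so its recurrence here is no separate support.

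Genes with the pattern most like those of CDH1 and VIM were taken from 10502 genes with a mean of at least 10 CPM, by the root mean square difference of log2(CPM + 1), centred for each gene, over the 8 libraries. The added 1 shrinks the differences of genes near 0 in a line, so that a gene close by this measure can have another ratio in TPM. This is a description over 2 lines, in which any gene with a similar difference between the lines scores well. ATP8B1, a phospholipid flippase, was closest to CDH1 (0.116 log2 units), at 52.87 to 55.50 TPM in HT29 and 2.36 to 2.79 TPM in SW480, followed by AMIGO2, MRAP2, C12orf28 and FOXP1 (0.12 to 0.147). NGFR, the p75 neurotrophin receptor, was closest to VIM (0.092), at 0.20 to 0.35 TPM in HT29 and 414.75 to 533.38 TPM in SW480, followed by NELL2, APCDD1, PHLDB2 and STC2 (0.18 to 0.481).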

How the data were processed

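The authors trimmed the paired-end reads, aligned them to hg19 with MapSplice, and used RSEM on refGene transcripts to estimate the deposited expected counts per gene symbol and the deposited TPM values, which are scaled to a fixed total and corrected for transcript length. Per the labels, the submitters also used DESeq2. Here expected counts were rounded and tested with the edgeR 4.0.16 quasi-likelihood test (TMM normalization, at least 10 counts in at least 2 libraries of each fit, Benjamini-Hochberg adjustment over all genes tested, threshold 0.05). Fits held the 4 libraries compared, or all 8 for the difference between lines. Log2 fold changes carry SEs from these fits. Intervals of count ratios are exact binomial, at 95%, and cover counting error only. TPM values were used for levels and, with pseudocounts of 1 and 0.1, in limma 3.58.1.

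Groups came from the sample labels. Gene lists, and up to 3 genes per list (largest absolute log2 fold change among those passing, with a mean of at least 5 CPM and groups without overlap), were named by a fixed rule, except where a gene is said to be named after its values were seen. The condition on overlap was not applied to the difference between the lines. The genes and lists were chosen with earlier results of these data known. Transcript GC content was matched for 91.4% of symbols on GRCh37. Alternatives were RLE normalization, no filter, DESeq2 1.42.0, limma, a replicate block, a GC content offset (loess, span 0.5), all 8 libraries together and leaving out each library. List medians and list genes without SW480 control library 1, and list counts over genes that passed the filter in both lines, were added after the data were seen. Scripts were tested on simulated data. A few genes picked by this rule are left unreported.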

Additional observations from a re-analysis of the deposited data

Results flagged for a closer look

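The effect of PRDX2 siRNA differed between the lines, by the edgeR test of the difference itself (SW480 minus HT29, log2 scale), for 5 of the genes named here, and for 0 of the 10 EMT genes. Over all 14772 genes tested, 1.12% passed. Passing this test was 1 of the ways for a list gene to be named, so nothing is read from the 5 as a count. PRDX2 differed by -0.84 (adjusted p = 0.0128), with -0.87 in HT29 and -1.70 in SW480. NT5E differed by -0.89 (adjusted p = 0.0153), with -0.32 in HT29 and -1.21 in SW480. DAB2, an endocytic adaptor, differed by -0.88 (adjusted p = 0.0467), with 0.46 in HT29 and -0.42 in SW480. The desmosome gene DSP differed by -0.55 (adjusted p = 0.0202), with 0.47 in HT29 and -0.07 in SW480, and its partner PKP2 by -0.53 (adjusted p = 0.0432), with 0.05 in HT29 and -0.48 in SW480. Within a line, the values of DAB2 and DSP in SW480 and of PKP2 in HT29 did not pass. The differences of NT5E, DAB2, DSP and PKP2 were not refitted with 1 library left out. Leaving out 1 library at a time moved the adjusted p of the PRDX2 difference over the threshold, to between 0.122 and 0.159, in 6 of 8 cases, among them each case in which an HT29 or an SW480 PRDX2 siRNA library was left out. Groups of 2 libraries were too small to search for single libraries that stand apart gene by gene.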

How the results depend on the processing

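The 98 values of the 8 tested EMT genes in each comparison between the lines kept their direction and stayed past the threshold under every alternative that could fit them. VIM, ZEB1 and SNAI2 passed the filter on low counts only through SW480 and had to differ. Nothing is read from the stability of their values. CDH1, CDH3, SNAI1, FN1 and ESRP1 passed the filter in both lines, and their values are among those that held. When an SW480 library was left out, VIM, ZEB1 and SNAI2 failed the filter on low counts, so that the number past the threshold ran from 5 to 8 in each comparison. The knockdown calls moved more. In HT29, 2279 genes passed, against 871 by DESeq2, 1196 with the GC content offset and 185 with all 8 libraries fitted together. In SW480, 466 genes passed, against 214 and 177 by limma with pseudocounts of 1 and 0.1, 1232 with the GC content offset, 2415 with all 8 libraries and 87 to 7364 with 1 library left out. The EMT genes past the threshold there numbered 1, against 0 without the filter, 0 and 0 by limma, 2 by DESeq2, 3 with the GC content offset, 3 with all 8 libraries, and 0 to 4 with 1 library left out. For the difference between the lines, 166 genes passed, against 267 without the filter, 311 by DESeq2, 103 and 43 by limma and 6 to 5237 with 1 library left out. Of the EMT genes, 0 passed, against 1 by limma with a pseudocount of 1 (VIM, -0.71, adjusted p = 0.0491) and 0 to 2 with 1 library left out. With 1 library left out, the remaining one of its group is assumed to vary like the others. The cause of these shifts was not tested.

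Replicate numbers did not pair the libraries, with correlations of deviations from -0.02 to 0.10 between groups. With the replicate block, 1727 genes passed in SW480, 49.7% of them higher, 3 of them EMT genes (VIM, FN1 and CDH3), and 349 passed for the difference. With the GC content offset and the replicate block together, 3423 genes passed in SW480, 79.5% of them higher, 4 of them EMT genes.

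Values near 0 that did not pass changed sign. In HT29, CDH1 and CDH3 were at 0.06 and 0.05 by limma with either pseudocount, 0.01 and 0.01 with the GC content offset, and 0.01 and 0.01 with the GC content offset and replicate block. With 1 library left out they ran from -0.03 to 0.02 and from -0.07 to 0.05. In SW480, SNAI2 was at 0.02 and 0.03 by limma, 0.11 with the GC content offset and 0.12 with the replicate block added, and ZEB1 at 0.19 and 0.20 in the last 2. With 1 library left out, CDH1 ran from -0.05 to 0.18, SNAI1 from -0.11 to 0.53 and SNAI2 from -0.33 to 0.20. For the difference, SNAI2 was at 0.02 and 0.03 by limma and at 0.16 and 0.17 with the GC content offset without and with the replicate block, and ZEB1 at 0.08 and 0.09. With 1 library left out, CDH1 ran from -0.05 to 0.18, ZEB1 from -0.43 to 0.38 and SNAI2 from -0.32 to 0.20.

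TPM scaling moved the median of all genes between the lines to 0.15 in control libraries and 0.18 in PRDX2 siRNA libraries. At 8857442 to 10164137 counts per library, CDH2 and ZEB2 in both lines and VIM, ZEB1 and SNAI2 in HT29 were too rare for a test of the knockdown.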

Other observations

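The abundance-weighted transcript length that RSEM gives each gene was read for 4 genes with exons known to be regulated by ESRP proteins, chosen after values had been seen. For CD44, whose epithelial form carries variable exons, the length was 5099.88 to 5118.42 bases in the 4 HT29 libraries and 4723.96 to 4812.21 bases in the 4 SW480 libraries. CTNND1 ran from 5837.15 to 5845.92 bases in HT29 and from 5860.82 to 5907.80 bases in SW480, and ENAH from 13150.48 to 13159.05 and from 13123.54 to 13130.45 bases. FGFR2 ran from 4382.15 to 4460.78 bases in HT29, but its 18 to 26 counts per SW480 library gave 3807 to 4555.13 bases, a range that includes the HT29 values. The share of all genes whose lengths separate the lines was not counted, so nothing particular to these 4 genes is read from them. A link to ESRP1 was not tested. These lengths mix all transcripts of a gene, and no exon was counted.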
